A study of Mus musculus with 35 samples.

Results

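The 8 genes described here encode proteins of the photoreceptor ribbon synapse, namely Cacna2d4, Cabp4, Ctbp2, Bsn, Rims2, Pclo, Unc119 and Slc17a7. They were taken from a list of names, and Cacna2d4 is on that list because its start gains H3K4me3 in these very libraries, so it was chosen by the H3K4me3 heights compared below. They are 8 of 17276 protein-coding genes, with 11 of 20122 annotated starts, whose starts could be placed on mm9, the genome build of the peak lists. Chromatin from whole mouse retinae was immunoprecipitated and sequenced. Wild-type retinae were taken on the day of birth (P0) and at P12, P14 and P21. The comparison genotype at P12, labelled BRG1 -/-, came from Chx10-Cre;Brg1 Lox/Lox mice. There Cre acts in retinal progenitor cells and deletes Brg1, an ATPase subunit of the BAF chromatin remodelling complex. Cre is expressed in a mosaic pattern in these mice, so part of the retina keeps Brg1. The study favoured microphthalmic animals for ChIP so that fewer cells would be wild type. The name Brg1-deficient covers this mixed tissue throughout. Brg1 itself was mapped with an antibody against FLAG at P0 in mice whose own Brg1 carries a FLAG tag. H3K4me3 was measured in 2 libraries each at P0, P14 and P21 and in 1 library of each genotype at P12. H3K27Ac was measured in 2 libraries each at P0, P14 and P21, in 1 wild-type library at P12 and in 2 Brg1-deficient libraries. H3K27me3 was measured in 2 wild-type libraries at each of the 4 ages and in 1 Brg1-deficient library at P12, and Brg1-FLAG in 1 library. The study calls the libraries of a group biological duplicates, while the labels tie no library to an animal.

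Photoreceptors release glutamate continuously in darkness, and their terminals hold a plate-like organelle, the ribbon, that tethers vesicles next to the calcium channels. The ribbon is built from RIBEYE, which Ctbp2 encodes from a promoter inside the gene, whereas the upstream promoter gives the widely expressed transcriptional co-repressor CtBP2. Bassoon (Bsn) anchors the ribbon to the membrane, Piccolo (Pclo) is a large scaffold related to Bassoon, and RIM2 (Rims2) links vesicles to channels. The channels carry the alpha2delta-4 subunit (Cacna2d4) and are modulated by the calcium-binding protein CaBP4 (Cabp4). UNC119 binds CaBP4 and also traffics lipidated proteins in photoreceptors. Slc17a7 encodes VGLUT1, which loads vesicles with glutamate. Among the marks, H3K4me3 lies at active or poised starts, H3K27Ac at active starts and enhancers, and H3K27me3 over genes held silent by Polycomb.

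The 250 bases before a start are shown for the starts whose marks are compared most closely, so that the internal Ctbp2 start, which gained H3K4me3, can be read beside starts that already carried it at P0. The sequences are from RefSeq on GRCm38.p6 and read 5′ to 3′ in the direction of transcription. Capitals mark matches, on either strand, to TAATCC, the core bound by the photoreceptor factor CRX, to TGCTGA, the core of the site of NRL, to the GC box GGGCGG and to the TATA box TATAAA. The internal start of Ctbp2 lies 109 kb into the gene on chromosome 7 and stands first, followed by Slc17a7 on chromosome 7, Unc119 on chromosome 11, Pclo on chromosome 5 and Bsn on chromosome 9.
Ctbp2 internal: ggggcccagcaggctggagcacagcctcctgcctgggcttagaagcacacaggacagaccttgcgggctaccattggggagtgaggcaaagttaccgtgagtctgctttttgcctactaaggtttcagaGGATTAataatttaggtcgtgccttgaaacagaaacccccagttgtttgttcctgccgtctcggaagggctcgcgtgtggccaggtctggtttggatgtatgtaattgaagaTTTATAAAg
Slc17a7: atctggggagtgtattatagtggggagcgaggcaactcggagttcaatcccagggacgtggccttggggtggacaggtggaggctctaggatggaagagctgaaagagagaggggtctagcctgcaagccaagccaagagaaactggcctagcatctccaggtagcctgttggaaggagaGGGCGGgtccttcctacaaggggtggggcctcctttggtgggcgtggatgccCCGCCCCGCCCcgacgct
Unc119: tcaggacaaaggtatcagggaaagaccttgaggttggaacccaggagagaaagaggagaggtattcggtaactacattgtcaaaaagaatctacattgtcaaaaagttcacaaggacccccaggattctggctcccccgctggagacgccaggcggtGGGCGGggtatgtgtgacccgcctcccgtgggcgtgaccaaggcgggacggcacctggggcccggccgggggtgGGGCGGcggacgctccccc
Pclo: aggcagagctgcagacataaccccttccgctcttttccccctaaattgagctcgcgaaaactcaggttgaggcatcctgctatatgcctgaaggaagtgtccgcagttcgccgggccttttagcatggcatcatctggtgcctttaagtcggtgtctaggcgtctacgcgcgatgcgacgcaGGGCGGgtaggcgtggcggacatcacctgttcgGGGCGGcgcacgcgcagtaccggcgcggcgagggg
Bsn: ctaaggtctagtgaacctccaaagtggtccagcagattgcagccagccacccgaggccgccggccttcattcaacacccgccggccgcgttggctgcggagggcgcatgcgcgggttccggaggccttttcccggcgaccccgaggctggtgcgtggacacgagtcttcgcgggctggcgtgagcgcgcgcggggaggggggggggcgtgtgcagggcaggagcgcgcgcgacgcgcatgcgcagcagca
The internal Ctbp2 sequence held the CRX core in its reverse form, GGATTA, with its first base at -121 from the start, and overlapping matches to the TATA box on both strands at -9 and -7. The other 4 sequences held neither, while the second annotated Unc119 start, which is not shown, held GGATTA at -118. Slc17a7 had GC boxes at -70, -18 and -13, Unc119 at -93 and -19, and Pclo at -68 and -35, while Bsn held none of the 4 motifs. Over 32851 promoters of the same length, 6.25% held the CRX core, 16.1% the NRL core, 32.7% a GC box and 12.4% a TATA box. CpG dinucleotides numbered 7 in the internal Ctbp2 sequence, 9 in Slc17a7, 15 in Unc119, 25 in Pclo and 32 in Bsn, against a median of 6 over all promoters. A match is a description of letters and says nothing of binding. The Pclo and Bsn entries begin 12 and 36 bases from the starts used here, and Cacna2d4, Cabp4 and Rims2 had no entry.

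The files are peak lists, so the height of a peak is its fold enrichment over background at the summit, and no depth in reads is known. The H3K4me3 lists held 18534 to 24124 peaks, the H3K27Ac lists 17433 to 50005, the H3K27me3 lists 12188 to 30996 islands and the Brg1-FLAG list 50861 peaks. A height of 0 means that no peak was called. Heights were compared after scaling each library to an equal median over starts with a peak in every library, and the factors ran from 0.618 and 1.64 for the P21 H3K4me3 libraries to 1.97 for P21 replicate 1 of H3K27Ac. The 6 rod markers with a start moved with the later stages. Their summed scaled H3K4me3 height was 10.9 and 19.3 at P0, 131 at P12, 179 and 169 at P14 and 230 and 249 at P21, and Cnga1 and Pde6b had no peak in either P0 library. In Brg1-deficient retinae the sum was 161. The sum over the progenitor markers Sox2 and Nes was 64.5 and 87.2 at P0 and 20.5 and 26.2 at P21. Cone markers did not move like rod markers, with H3K4me3 sums of 39 and 25.2 at P0 and 15.3 and 15.9 at P21. Arr3, Opn1sw and Opn1mw had no H3K4me3 peak in any library. Sums over bipolar, amacrine and horizontal, ganglion and Muller glia markers were also lower in both P21 libraries than in both P0 libraries. For H3K27Ac the rod sum was 4.2 and 0 at P0, 82.1 at P12, 128 and 66 at P14 and 195 and 93.4 at P21. Markers of microglia (3 genes) had no peak in any library of either mark. Among the 4 retinal pigment epithelium genes with a start, the wild-type H3K4me3 lists held no peak and the Brg1-deficient list 1 of 4 (sum 4.1). In whole retina, a mark on more cells of a type and more mark per cell cannot be told apart, and the share of photoreceptors in each value below was not tested.

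The internal Ctbp2 start rose in H3K4me3 after P0, Cacna2d4 went from no peak to a high one, and the starts of Bsn, Rims2, Pclo, Unc119 and upstream Ctbp2 carried high H3K4me3 from P0 onwards. Cacna2d4 had fold enrichments of 0 and 0 at P0, 54.6 at P12, 40.3 and 18.1 at P14 and 77.8 and 27.7 at P21. All 5 later wild-type libraries had a peak where both P0 libraries had none, which is the gain the gene was chosen for, and its stages are therefore given without a test. After scaling, its mean height was 33.4 ± 18.6 (SD, n = 2) at P14 and 46.8 ± 1.80 (n = 2) at P21.

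The internal start of Ctbp2 had heights of 6.41 and 5.44 at P0, 26.4 at P12, 35.5 and 32.2 at P14 and 69.3 and 19.6 at P21. Both P0 libraries lay below every later library. The scaled mean rose from 6.0 ± 0.846 (SD, n = 2) at P0 to 38.5 ± 3.56 at P14 and 37.5 ± 7.55 at P21. On the log2(scaled height + 7.11) scale the differences were 1.77 (SE 0.26, limma, Benjamini-Hochberg adjusted p = 0.0031) at P14 and 1.73 (SE 0.26, limma adjusted p = 0.0025) at P21. Across all 12320 starts tested, 0.779% were called higher and 1.72% lower at P14, and 1.17% and 6.42% at P21. Without scaling between libraries the call was lost, with adjusted p = 0.276 at P14 and 0.116 at P21. The upstream Ctbp2 start showed no such pattern, with 58.9 and 53.9 at P0, 72.0 at P12, 46.5 and 42.5 at P14 and 73.7 and 35.1 at P21. Its log2 differences were -0.15 (95% interval -0.72 to 0.41) and -0.13 (-0.70 to 0.44). The remaining annotated Ctbp2 start had no H3K4me3 peak in any of the 8 libraries.

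Slc17a7, which the study itself singled out on these samples, already had H3K4me3 at P0. Its heights were 18.2 and 38.6 at P0, 55.1 at P12, 50.5 and 50.5 at P14 and 78.9 and 26.6 at P21. After scaling, both P0 libraries (18.7 and 38.3) lay below the later wild-type ones (38.8 to 58.3), and P0 replicate 2 was close to the P12 library (38.8). The difference did not pass the test at P14 (log2 0.90, SE 0.30, limma adjusted p = 0.146) or at P21 (0.63, 95% interval -0.01 to 1.28, limma adjusted p = 0.259). For Bsn, Rims2, Pclo and Unc119 the scaled heights ranged from 39.6 to 62.4 at P0 and from 35.9 to 85.3 later. Both P14 libraries of Bsn (47.9 and 64.2) and its P12 library (56.4) lay above P0 (39.6 and 45.9). The P12 library of Unc119 (56.4) lay just above P0 (54.8 and 42.0), and that of Pclo (53.8) just below (57.0 and 54.8). At P12 Rims2 overlapped P0, as did the remaining P14 and P21 values of these genes. Their log2 differences lay between -0.22 and 0.33 at P14 and between -0.05 and 0.26 at P21, and none was called. The outermost Cabp4 start had a peak in P21 replicate 1 only (61.2), a wide peak that belongs to a region inside the gene described below.

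**Figure D1:**
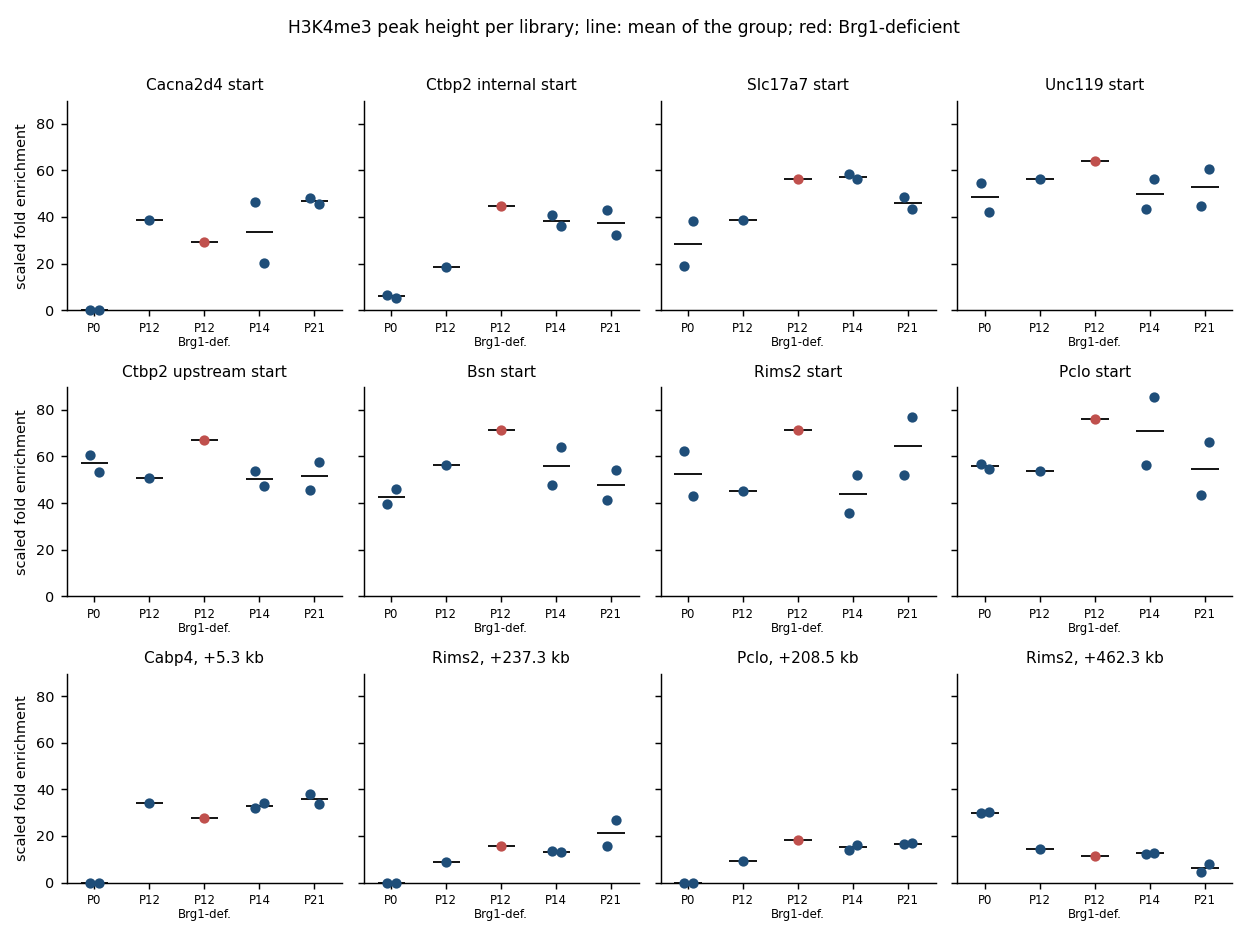
H3K4me3 peak height (scaled fold enrichment, vertical axis) in each library by age and genotype, with the group mean as a line and Brg1-deficient libraries in red. Cacna2d4, Cabp4, the Rims2 region at 237.3 kb and the intragenic Pclo region were at 0 in both P0 libraries. The Rims2 region at 462.3 kb was highest at P0. The internal Ctbp2 start rose from 6.0 to 38.5 at P14, and the starts in the middle row were high at every stage.

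Among all starts tested, these values placed the internal Ctbp2 start in the thin upper tail. Cacna2d4 also lay there, as its choice for this gain fixed in advance. The other tested ribbon gene starts lay lower, with Slc17a7 the highest of them (log2 0.90 at P14 and 0.63 at P21). Cabp4 had too few peaks at its start to be tested. Leaving out Cacna2d4 and counting the shared Unc119 peak once, 7 starts of 6 genes were tested, with a median log2 difference of 0.28 at P14 and 0.13 at P21, beside -0.03 and -0.08 over all starts. The 7 include Slc17a7, which the study singled out on these samples, so the median is not independent of that choice. The wider lists give the setting. Of 30 other photoreceptor terminal genes, 25 could be tested at 31 starts, and at P21 5 starts were called higher and 2 lower, against 1.17% and 6.42% of all starts. Of the 5 higher starts 4 had no P0 peak and entered the test through later libraries alone, so that nothing is read from their count. They include Lrit1 (0 and 0 at P0, 72.1 and 19.3 at P21), Lrit2 (0 and 0, then 31.0 and 6.21) and Mpp4, a scaffold of the photoreceptor terminal (0 and 0, then 34.0 and 17.6). Lrit2 was counted at 2 starts with equal P21 heights. The exception among the 5 was Tulp1, named after its values were seen, with 14.2 and 14.6 at P0 and 66.1 and 20.3 at P21. The 2 lower starts, also named after their values were seen, had a peak in every P0, P14 and P21 library. Cacnb2 had 30.6 and 21.7 at P0 and 14.3 and 6.57 at P21 (log2 -0.96, SE 0.27, limma adjusted p = 0.049). A Dmd start had 30.1 and 37.6, then 19.1 and 8.12 (-1.05, SE 0.27, limma adjusted p = 0.033). That list includes Sv2b, which the study also singled out, so its count is not independent. Of 10 genes used by the ON bipolar cells that face the ribbon, 3 were called higher and 0 lower at P21 by limma, and at an unadjusted p under 0.05 5 were higher and 1 lower, against 3.78% and 16.5% of all starts. None of the 3 had a P0 peak, so the filter fixed their direction, and nothing is read from their calls either. Lrit3, needed for TRPM1 to reach the dendrite tips, had 35.9 and 15.9 at P21, Gnb5, a G protein subunit that photoreceptors use as well, had 32.6 and 15.0, and the channel gene Trpm1 had 11.7 and 4.29. Of 10 genes of conventional synapses at 12 starts, 0 were called higher by limma at P21 (0 also at an unadjusted p under 0.05) and 2 lower, Gad2 at -1.13 (SE 0.28, limma adjusted p = 0.029) and Stx1a at -0.95 (SE 0.26, limma adjusted p = 0.045). All 6 rod markers were called higher, of which 2, Pde6b and Cnga1, had no P0 peak.

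**Figure D2:**
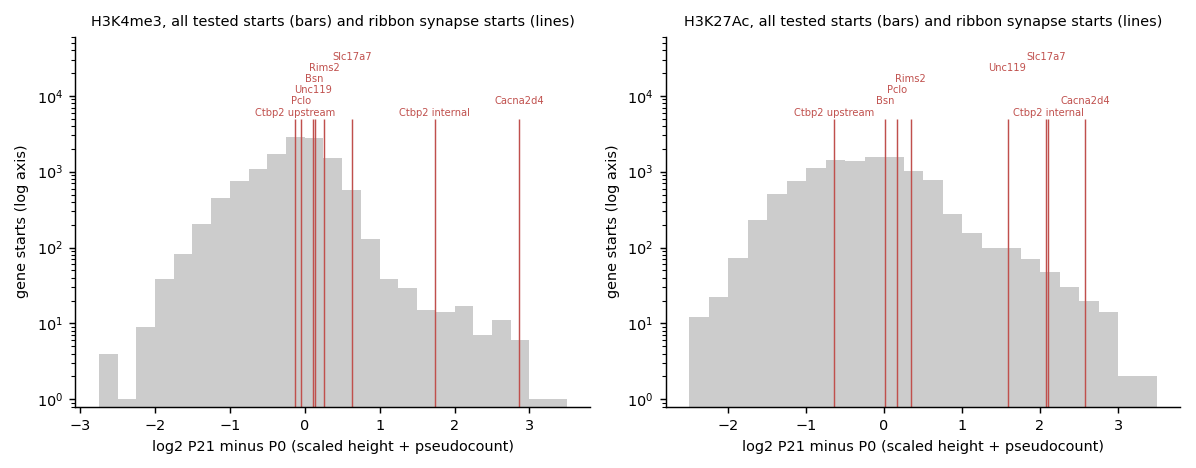
Distribution of the log2 difference between P21 and P0 over all tested gene starts (bars, number of starts on a log axis) for H3K4me3 (left) and H3K27Ac (right), with the ribbon synapse starts as lines. For H3K4me3 Cacna2d4 (2.86, the gene chosen for this gain) and the internal Ctbp2 start (1.73) stand in the upper tail, and the other starts lie between -0.13 and 0.63.

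Peaks away from the annotated starts were examined because Cabp4, Rims2 and Pclo gained H3K4me3 inside the gene, a step added after the data were seen. Peaks of the wild-type P0, P14 and P21 libraries were merged into regions, and 48 regions fell in the 8 genes or within 20 kb of them, of which 31 had a peak in at least 2 libraries and were tested. By limma, 6 regions were called higher and 3 lower at P14, and likewise 6 and 3 at P21, against 3.76% and 12% of 21075 regions at P14 and 5.08% and 15.8% at P21. Of these, 5 of the higher regions had no P0 peak and 2 of the lower ones no later peak. They passed the filter only through the stages where they were high, which fixed their direction. Nothing is read from the count, and such regions are given by their heights with no test. A peak in all 4 P14 and P21 libraries and none at P0 was found for 5 of the 31 tested member regions and 2.77% of all regions. The Cacna2d4 start is among these 5 and among the 6 higher regions, as its choice for this gain fixed in advance. Another of the 5 lies at the start of a neighbouring gene, as described below. Nothing is read from this count either.

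The Cabp4 region lay 5.3 kb downstream of the outermost start, at chr19:4135769-4142737. Its heights were 0 and 0 at P0, 48.3 at P12, 27.6 and 30.6 at P14 and 61.2 and 20.4 at P21. No later library overlapped P0. The gene Gpr152 reaches the window around the Cabp4 start, and signal over both cannot be divided between them.

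A Rims2 region 237.3 kb into the gene, at chr15:39265604-39268160, had heights of 0 and 0 at P0, 12.8 at P12, 11.6 and 11.6 at P14 and 25.3 and 16.3 at P21. It was absent from P0 and lower than the peak at the Rims2 start in every library. A Pclo region 208.5 kb into that gene, at chr5:14721094-14724269, had 0 and 0 at P0, 13.1 at P12, 12.3 and 14.5 at P14 and 26.7 and 10.3 at P21. It too was absent from P0 alone. Among the starts placed on mm9, the nearest to the Pclo region was 191.5 kb away, and the nearest to the Rims2 region was that of Rims2 itself. The remaining regions of this kind were the Cacna2d4 start and a region 20.1 kb upstream of Unc119 that lies 0.3 kb from the start of the glycolytic gene Aldoc.

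Of these 5 regions, those at the Cacna2d4 start and upstream of Unc119 overlapped 1 Brg1 peak each at P0, and those in Cabp4, Rims2 and Pclo overlapped none. Of the 583 regions with this pattern over the genome, 40.0% overlapped one, against 71.0% of all tested regions. In the opposite direction, a second intragenic Rims2 region, 462.3 kb into the gene at chr15:39490722-39492193, had heights of 29.0 and 30.3 at P0, 20.6 at P12, 10.7 and 11.5 at P14 and 7.61 and 4.88 at P21. Each age lay below the one before without overlap. Its log2 differences were -0.99 (SE 0.22, limma adjusted p = 0.035) and -1.65 (SE 0.22, limma adjusted p = 0.010), and 1 Brg1 peak overlapped it. Weak P0 peaks in Bsn (79.0 kb, 3.50 and 3.79) and downstream of the Slc17a7 start (11 kb, 3.90 and 7.17) had no counterpart in any later library. A peak in both P0 libraries and none later was found for 8.45% of all regions. The P14 call of the Rims2 region at 462.3 kb was lost in 7 of 11 alternatives, namely without P0 replicate 1 (adjusted p = 0.248) or 2 (0.278), without P14 replicate 2 (0.138) or 3 (0.119), with a pseudocount of 1 (0.062), with a peak required in every library (0.082) and without scaling (0.111). Its P21 call was lost without P21 replicate 2 (0.051) and without scaling (0.080).

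**Figure D3:**
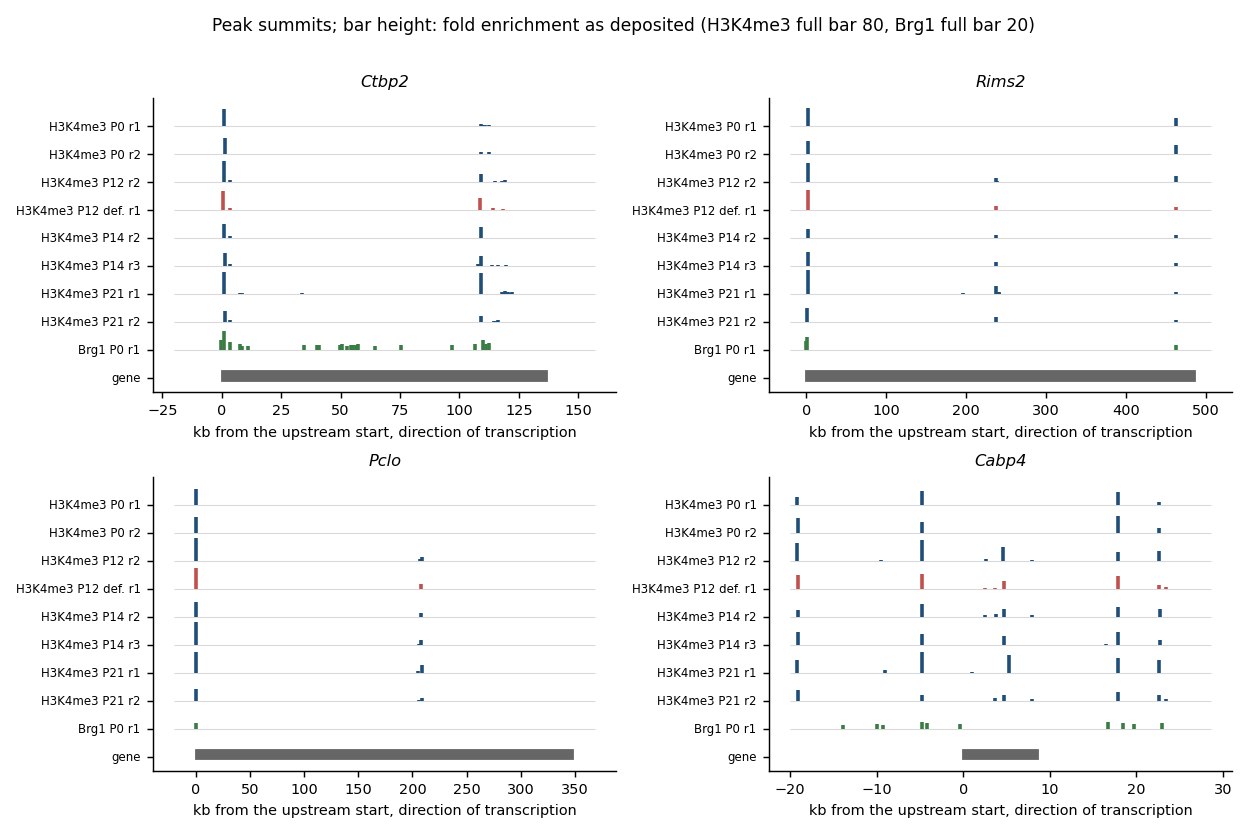
Summits of H3K4me3 peaks (blue, wild type; red, Brg1-deficient, marked def.) and Brg1 peaks (green) along Ctbp2, Rims2, Pclo and Cabp4, in kb from the upstream start, with bar height proportional to the deposited fold enrichment and the gene as a grey bar. Peaks 237.3 kb into Rims2, 208.5 kb into Pclo and near 5.3 kb in Cabp4 appear in every row after P0, and the Rims2 peak at 462.3 kb shrinks from 29.0 and 30.3 to 7.61 and 4.88.

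H3K27Ac heights at the Slc17a7, internal Ctbp2 and Unc119 starts were lowest at P0, but no start passed the test. Slc17a7 had heights of 0 and 5.05 at P0, 18.3 at P12, 23.8 and 27.8 at P14 and 14.2 and 13.4 at P21. The internal Ctbp2 start had 0 and 5.08 at P0, 13.1 at P12, 20.1 and 23.9 at P14 and 13.4 and 15.2 at P21. At both starts the P0 libraries lay below all later ones. The log2 difference at P14 was 2.30 (95% interval 0.94 to 3.65, limma adjusted p = 0.323) for Slc17a7 and 2.10 (0.80 to 3.39, limma adjusted p = 0.346) for Ctbp2, and at P21 it was 2.08 (limma adjusted p = 0.247) and 2.11 (limma adjusted p = 0.222). Unc119, whose H3K4me3 was high at all stages, had H3K27Ac of 8.49 and 10.3 at P0, 27.5 at P12, 35.2 and 32.8 at P14 and 27 and 22.9 at P21. Its P0 libraries were again the lowest, with differences of 1.42 and 1.58 (limma adjusted p = 0.566 and 0.311). Where only starts with a peak in every library were fitted, Unc119 passed at both stages (limma adjusted p = 0.0375 and 0.0175). Cacna2d4, for which these stages are description only, had 0 and 3.21 at P0 and 12.6 to 22.8 in the 5 later wild-type libraries. After scaling, the upstream Ctbp2 start was higher at P0 (22.3 and 16) than in every later wild-type library (9.21 to 13.8), with log2 differences of -0.43 and -0.65 that did not pass the test (limma adjusted p = 0.813 and 0.552). Those of Bsn, Rims2 and Pclo lay between 0.02 and 0.36 and did not pass. Rims2 and Pclo at P14 lay above P0 in both libraries, and the P21 libraries of all 3 genes overlapped P0.

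No start of the 11277 tested was called for H3K27Ac by limma at P14 or P21 (0% in either direction), with 911 and 1283 at an unadjusted p under 0.05. Leaving out Cacna2d4 and counting Unc119 once, 3 of 9 ribbon gene starts were higher at an unadjusted p under 0.05 at each stage and 0 lower. Over all starts the shares were 3.39% and 4.69% at P14 and 4.43% and 6.94% at P21. The 3 include Slc17a7, which the study singled out on these samples. The Cabp4 start and the remaining Ctbp2 start had no P0 peak and entered the test through later libraries alone. Nothing is therefore read from this count. The spread between the libraries of a stage was large for this mark. At P14 replicate 1 held 17433 peaks and replicate 2 50005, and after scaling Unc119 was at 48.5 and 21.2 in them.

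Over the genes and 20 kb on each side there were 170 H3K27Ac regions, of which 91 were tested. Of these, 60 had no P0 peak and passed the filter through later libraries alone. No region was called by limma at P14 or P21, as for all 33340 regions, with the lowest adjusted p at P21 just above the threshold (0.0504). At an unadjusted p under 0.05, 17 member regions were higher and 0 lower at P14, and 25 and 0 at P21, which is 18.7% and 27.5% higher, beside 10.3% higher and 5.88% lower of all regions at P14 and 18.9% and 7.23% at P21. Nothing is read from these shares, since regions without a P0 peak could hardly be lower. A peak in all 4 later libraries and none at P0 was found for 13 member regions and 8.07% of all. The reverse was found for 0 member regions and 3.70% of all. Of the regions gained in this way over the genome 27.5% overlapped a Brg1 peak at P0, against 56.0% of all tested H3K27Ac regions.

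The intragenic Cabp4 region (chr19:4137840-4141921) had H3K27Ac heights of 0 and 0 at P0, 24.1 at P12, 21.6 and 22 at P14 and 21.5 and 15.8 at P21. Every later library was above P0, and as the region entered the test through those libraries alone no test is given, nor for the next ones. Around Slc17a7 a region 32 kb downstream of the start, at chr7:52448155-52453567, had 0 and 0 at P0, 11.6 at P12, 13.6 and 19.2 at P14 and 9.19 and 8.99 at P21. That region is 9.0 kb from the start of Kash5 and beyond the end of Slc17a7. In Pclo the intragenic H3K4me3 peak was matched by H3K27Ac of 0 and 0 at P0, 11.8 at P12, 11.4 and 6.80 at P14 and 14.6 and 10.4 at P21. Here too no P0 library overlapped a later one.

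**Figure D4:**
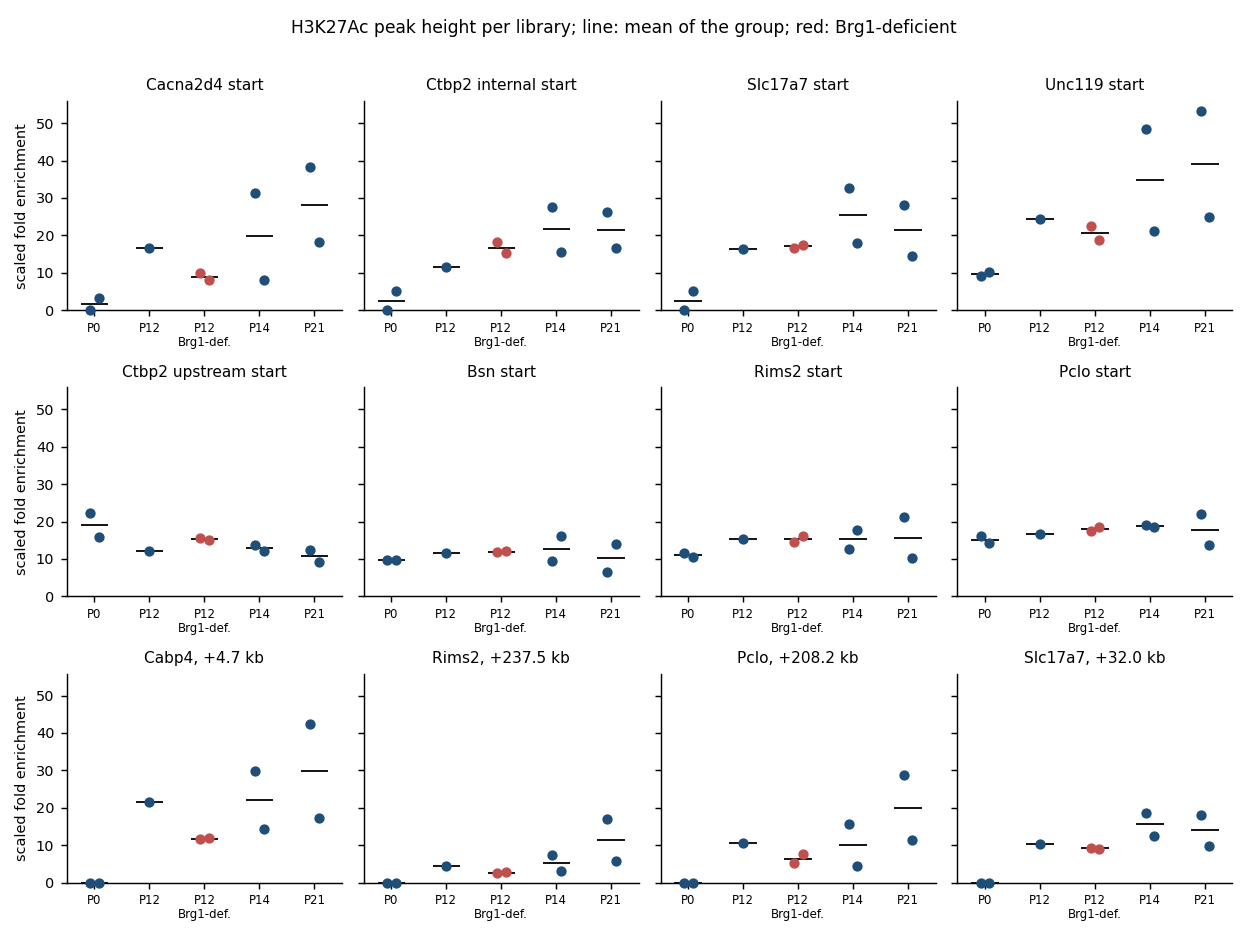
H3K27Ac peak height (scaled fold enrichment, vertical axis) in each library by age and genotype, with the group mean as a line and Brg1-deficient libraries in red. P0 is at or near 0 for Cacna2d4, the internal Ctbp2 start, Slc17a7 and the 4 intragenic or flanking regions of the bottom row, and the P14 and P21 libraries of a pair differ widely, as for Unc119 at 48.5 and 21.2 at P14.

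In both P0 libraries H3K27me3 covered 2 of the 11 starts of these genes, those of Slc17a7 and Rims2. Of all starts 15.4% had an island in both P0 libraries, which is near the share among these genes, so nothing is read from the count. Among all starts, an island lay over 16.8% and 19.7% at P0, 20.2% and 21.7% at P12 in wild type, 20.8% in the Brg1-deficient library, 17% and 23.0% at P14 and 18.7% and 20% at P21. Over Rims2 an island of 6.8 kb and one of 5.6 kb lay across the start at P0 (chr15:39024401-39031199 in replicate 1), and islands of 3.8 and 2.2 kb at P12 in wild type and 2.4 kb in the Brg1-deficient library. No P14 or P21 library had an island over this start. That pattern, an island in both P0 libraries and in none of the 4 at P14 and P21, was found at 1.65% of all starts and at 10.7% of the 3096 starts with an island in both P0 libraries. The same Rims2 start carried an H3K4me3 peak in every library.

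Slc17a7 lay under islands that covered 25.2 and 23.6 kb of the gene and its 20 kb flanks at P0. The covered length was 17 and 9.4 kb at P12 in wild type, 16.2 kb in the Brg1-deficient library, 0 and 21.8 kb at P14 and 0 and 9.6 kb at P21. The libraries of a stage disagreed at P14 and P21, since replicate 1 had no island where replicate 2 had several. Over the start itself an island remained in P14 replicate 2 and in P12 wild-type replicate 1 and was absent from the other P12, P14 and P21 libraries. The 6 other genes had no island over a start in any library. Cacna2d4, Cabp4 and Unc119 had no island within 20 kb in any of the 9 libraries, also at P0, when the start windows of Cacna2d4 and Cabp4 held no H3K4me3 peak. Elsewhere in these loci H3K4me3 was present at P0, at 20.01 and 15.3 in Cacna2d4 (94.1 kb from its start and 1.4 kb from that of Lrtm2) and at 47.2 and 36.9 in a region 4.7 kb upstream of Cabp4. At Bsn an island 4.5 to 1.3 kb upstream of the start was seen in P0 replicate 1 (4.9 to 2.5 kb in replicate 2) and not later. The H3K27me3 antibody at P12 is labelled AB3 and at the other ages AB1, so P12 and the other ages cannot be compared apart from the antibody.

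Brg1 lay within 2 kb of a start in all 8 genes at P0, where 52.8% of all starts had such a peak. The heights there were 15.5 at the upstream Ctbp2 start, 10.8 at Unc119, 10.7 at Rims2, 7.99 at the internal Ctbp2 start, 7.60 at Bsn, 5.51 at Slc17a7, 4.65 at Pclo, 4.0 at Cabp4 and 3.32 at Cacna2d4. A peak counted where any part of it lay in the window, and the summit of the Unc119 peak was 2.7 kb from the start. The median of all such peaks was 5.86. These values come from 1 library without replicates. The number of peaks in the gene and 20 kb on each side ranged from 1 in Pclo and 3 in Rims2 to 11 in Cacna2d4, 10 in Cabp4, 8 in Unc119, 15 in Bsn, 18 in Slc17a7 and 23 in Ctbp2. Per 100 kb this was 34.5 peaks for Slc17a7, 20.6 for Cabp4, 17.5 for Unc119, 13 for Ctbp2, 11.2 for Bsn, 7.1 for Cacna2d4, 0.6 for Rims2 and 0.3 for Pclo, against a median of 2.18 over all genes. Slc17a7 exceeded 99.5% of genes in this density, and Rims2 and Pclo 32.6% and 31.4%. The densest, Slc17a7, Cabp4 and Unc119, are the shortest genes (12219, 8658 and 5670 bases), so their windows are mostly flank. Rims2 and Pclo are the longest (486087 and 348560 bases). The start of Aldh16a1 lies 9385 bases from that of Slc17a7, and peaks of neighbouring genes were not separated. The strongest peak in the Slc17a7 window had a height of 6.62. It lay 17.8 kb downstream of the start, beyond the end of the gene, at chr7:52436416-52437600. For Pclo the single peak, at chr5:14515010-14515428, was the one at its start, and over all genes 69.1% had a Brg1 peak in gene or flanks.

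At P12 the Brg1-deficient retinae were compared with wild type. For H3K27Ac, with 1 wild-type library against 2, limma called 0 of 11652 starts (0% in either direction), with 108 at an unadjusted p under 0.05, none of them a ribbon gene start. Cacna2d4 was at 18.8 in wild type and at 13.8 and 10.7 in the Brg1-deficient libraries, below wild type in both. The log2 difference was -0.71 with a 95% interval from -2.45 to 1.03. Slc17a7 was at 18.3 against 23.0 and 23.4 (0.05 after scaling, -1.45 to 1.55), and the internal Ctbp2 start at 13.1 against 25.2 and 20.4 (0.41, -1.03 to 1.86). The intragenic Cabp4 region was at 24.1 against 15.9 and 16. The summed H3K27Ac height of the rod markers was 82.1 in wild type and 67.1 and 62.3 in the Brg1-deficient libraries, and its part in these values was not tested. Intervals of this width hold both a 2-fold loss and a 2-fold gain for most members, so that no change could be resolved, and their equality is not shown.

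H3K4me3 had 1 library of each genotype at P12, hence no test. The internal Ctbp2 start was at 26.4 in wild type and 41.9 in Brg1-deficient retinae, which after scaling between the libraries was 21.4 and 51.6, a log2 difference of 1.27. After scaling it was the only ribbon gene start past a 2-fold difference, and its unscaled ratio was 1.59. Scaled over all H3K4me3 libraries, its wild-type P12 value was 18.6, below those of wild type at P14 and P21 (32.2 to 42.9). The Brg1-deficient value on that scale was 44.6, so the difference rests on 1 wild-type library that was low among the later ones. Among 11835 starts with a peak in both libraries, 2.16% were at least 2-fold higher and 2.35% at least 2-fold lower. With starts that had a peak in 1 genotype only added, the shares were 2.28% and 5.38% of 12238. Cacna2d4 was lower in the Brg1-deficient library, at 27.5 against 54.6 (log2 -0.38 after scaling). So were the intragenic Cabp4 region at 26.2 against 48.3 (-0.28) and the region 20.1 kb upstream of Unc119 at 8.16 against 21.4 (-0.789). The other regions gained after P0 went the other way. The Rims2 region at 237.3 kb was at 14.5 against 12.8 (0.788, unscaled ratio 1.136). The intragenic Pclo region was at 17.2 against 13.1, a 2.003-fold difference after scaling (unscaled ratio 1.318). The other starts lay between 0.19 (Unc119) and 0.67 (Rims2), beside a median of 0.03 and a 5 to 95% range of -0.80 to 0.81 over all starts. Scaling turned the direction for all of these but Rims2 (1.05), since the unscaled ratio was 0.872 for upstream Ctbp2, 0.836 for Bsn, 0.934 for Pclo, 0.751 for Unc119 and 0.956 for Slc17a7, and for Cacna2d4 it was 0.504. The rod marker sum of H3K4me3 was 161 against 131 in the same libraries. Since the deletion is mosaic, each Brg1-deficient value includes cells that keep Brg1.

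**Figure D5:**
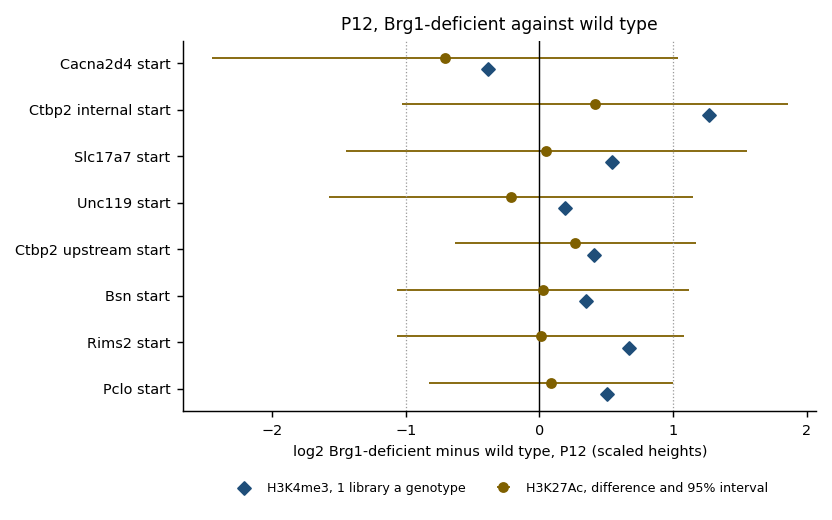
Log2 difference between Brg1-deficient and wild-type retinae at P12 (horizontal axis, scaled heights) at each ribbon gene start, as the limma estimate with its 95% interval for H3K27Ac (circles) and as the ratio of 1 library to 1 for H3K4me3 (diamonds), with dotted lines at a 2-fold difference. Every H3K27Ac interval spans 0, and the internal Ctbp2 start (1.27) is the only diamond past the dotted lines.

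Over the 17 H3K4me3 and H3K27Ac libraries, the starts closest to Cacna2d4 by Euclidean distance of log2 heights were those of Nxnl1 (1.49), Gpsm1 (1.51), Sag (1.51), Pcare (1.52) and Rd3 (1.56), where the median over 12713 starts was 6.29. The internal Ctbp2 start stood at rank 22 (2.30) and Slc17a7 at rank 136 (3.90). For Slc17a7 the closest were Acadvl (0.98), Tulp1 (1.46), Rgs9 (1.58), Elfn1 (1.63) and Tmem150c (1.69), with a median of 4.84 over all starts. The H3K4me3 heights at the Acadvl start equalled those at the Dlg4 start in every library (24.0 and 31.2 at P0). Dlg4 is among the other photoreceptor terminal genes, and this signal cannot be divided between it and Acadvl. Within the list the nearest to Slc17a7 was the internal Ctbp2 start at rank 122 (2.47). These distances use the same heights as the values above and are a description.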

How the data were processed

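Peak lists of chromatin immunoprecipitation from mouse retina were used as deposited. Per the submitters' processing notes, reads were aligned to mm9 with BWA 0.5.9-r26, narrow peaks called with MACS2 2.0.9 and H3K27me3 islands with SICER 1.1. The authors deposited for each narrow peak a fold ratio over background and -log10 p and q values, and for each SICER island a score, of which only positions were used. Peaks were called per sample, and 8 input samples had no file here.

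Starts of 17276 protein-coding genes were placed on mm9 from a GRCm38 gene table by a local offset, after which 59.2% lay within 1 kb of a wild-type P0 H3K4me3 peak (8.23% without it). The height of a start was the highest ratio within 2 kb. Libraries were scaled by medians, and features with a peak in at least 2 libraries were tested with limma 3.58.1 in R 4.3.3 on log2(scaled height + pseudocount), 2-sided, with Benjamini-Hochberg adjustment over all features and a threshold of 0.05. Pseudocounts were 7.11 and 3.29 for H3K4me3 and H3K27Ac starts and 4.12 and 2.33 for regions, and a difference on this scale understates that of low peaks. Stage fits took the 6 wild-type libraries per mark that were not from P12, and the P12 fit all 9 of H3K27Ac. The scripts were tested on simulated data. Genes and lists were chosen with earlier results of these data known. Named list genes were the 3 called starts of largest change at P21 per list, apart from Tulp1, Cacnb2 and Dmd, named after their values were seen. Alternatives covered pseudocount, scaling, filter, samples in the fit, each library left out and a replicate block. The tests of H3K4me3 regions were added after seeing the data.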

Additional observations from a re-analysis of the deposited data

How the results depend on the processing

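The number of reads behind each peak is unknown, and with 2 libraries per stage the calls follow the scaling and the filter. The internal Ctbp2 start was called for H3K4me3 in 11 of 12 alternatives at P14 (1.61 to 2.49) and 12 of 13 at P21 (1.5 to 2.45), and Slc17a7 in none. For H3K4me3 starts, the 308 calls at P14 became 494 with a pseudocount of 1, 29 without scaling, 183 with a peak required in every library, 204 with only the 2 stages compared and 106 to 260 with a library left out. The 935 calls at P21 became 68 without scaling (52 higher and 16 lower, against 144 and 791), 1734 with a replicate block and 228 to 977 with a library left out. For H3K4me3 regions, the 3318 calls at P14 became 0 without scaling, 462 with a peak in every library and 0 to 3375 with a library left out, and the 4401 at P21 became 0, 1200 and 0 to 4111, and 6626 with the replicate block. For H3K27Ac starts the 0 calls became 44 at P14 and 68 at P21 with a peak in every library, and 431 at P21 with equal numbers of peaks. For H3K27Ac regions the 0 calls became 2489 at P14 and 4535 at P21 with a pseudocount of 1, 64 and 178 with a peak in every library, and 4115 and 5579 with equal numbers of peaks. At P21 they became 7147 with only 2 stages, 6604 with the replicate block and 0 to 7045 with a library left out (7045 without P14 replicate 2, 3157 without P21 replicate 2). The P12 comparison had 0 calls throughout. The causes were not tested.

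Replicate numbers did not establish a pairing. Deviations of same-numbered H3K27Ac libraries at starts correlated at 0.15 (P0 with P14), 0.06 (P0 with P21) and 0.49 (P14 with P21, and 0.45 over regions). For H3K4me3 starts at P0 and P21 the value was 0.12. In H3K27Ac, replicate 1 held fewer peaks than replicate 2 at both P14 (17433 and 50005) and P21 (18718 and 45833), and the cause was not tested. No block was possible for H3K4me3 at P14, which shares only replicate 2 with P0. Signs changed only in differences that were never called. Without scaling these were Unc119 H3K4me3 at P14 (-0.10), H3K27Ac at P21 for Rims2 (-0.05), Pclo (-0.23) and Bsn (-0.26), and Unc119 at P12 (0.03). With each library left out in turn, H3K4me3 differences ranged from -0.12 to 0.21 for Unc119 and -0.46 to 0.01 for Rims2 at P14. At P21 they ranged from -0.08 to 0.29 for Unc119 (-0.06 without P0 replicate 2), -0.32 to 0.22 for Pclo, -0.28 to 0.02 for upstream Ctbp2 and -0.03 to 0.29 for Bsn. H3K27Ac differences ranged from -0.03 to 0.57 for Bsn at P14, from -0.08 to 0.76 for Rims2, -0.10 to 0.44 for Pclo and -0.37 to 0.42 for Bsn at P21, and from -0.06 to 0.08 for Rims2 at P12.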
